A study of Mus musculus with 384 samples.

Results

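A set of 10 tight junction genes was followed through the sorted cells of the mouse mammary gland: the claudins Cldn1, Cldn3, Cldn4, Cldn7 and Cldn8, the membrane proteins occludin (Ocln), tricellulin (Marveld2) and JAM-A (F11r), and the plaque proteins ZO-1 (Tjp1) and ZO-3 (Tjp3). They were chosen by name from the 49585 genes in the count table. The study profiled epithelial cells of the mammary gland after luminal cells had been ablated, in order to characterise cells that lie between the basal and the luminal type. Single cells were read with Smart-seq2, a full-length method without molecular identifiers, on 1 plate of 384 wells. Every well carries the same strain label, K8rtta/TetO-DTA/K5CreER/Rosa-Tomato on a mixed background, the wells labelled wild-type (WT) included. In such animals the Krt8-driven transactivator is built to switch on diphtheria toxin in luminal cells when doxycycline is given, and the Krt5-driven Cre to switch on the Tomato reporter in basal cells. The ablated groups came from glands injected through the duct with 0.2 mg doxycycline and taken 1 week later, and the labels give no injection for the WT groups and no age. All cells were sorted as Tomato-positive by CD29 and EpCAM and against CD140a, CD45 and CD31, and the labels do not say how the hybrid gate was drawn.

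After filters on depth and mitochondrial reads, 319 of 374 single-cell wells remained: 44 basal and 43 luminal cells labelled WT, and 71 basal, 85 hybrid and 76 luminal cells from ablated glands. Depth ran from 118310 to 3835005 gene reads per cell, the group medians lying between 677373 in ablated basal and 1372883 in WT luminal cells. The labels name no animal, so each of the 5 groups counted as 1 sample, no test between groups was possible, and ablation, injection and animal cannot be told apart. Each group lies in adjoining lines of the plate, so plate position cannot be told apart from group either. The labels were set against 8 basal and 5 luminal marker genes. Basal markers summed to 20494 CPM (reads of the gene per 1000000 reads in genes) in WT basal and 166 CPM in WT luminal cells, and luminal markers to 1981 and 22377 CPM. Ablated hybrid cells held both, with 17223 and 12165 CPM. In cells labelled ablated luminal, 45 of 76 detected at least 2 basal markers, against 1 of 43 in WT luminal cells. Their library of many cells held basal markers at 491 CPM, where the pooled single cells held 6382 CPM.

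Tight junctions seal the space between neighbouring epithelial cells near their apical side. Claudins cross the membrane and pair between cells to form the strands that set which ions pass. Occludin and tricellulin, a relative that gathers where 3 cells meet, belong to the same strands, JAM-A is an adhesion molecule of the immunoglobulin type, and the ZO proteins tie the strands to actin. In the mammary gland these junctions join the luminal cells that line the duct, whereas basal myoepithelial cells sit outside them and contract to move milk.

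The transcripts come from 8 places in the genome. Cldn3 (chr5:134986214-134987472, plus strand, GRCm38) and Cldn4 (chr5:134945119-134946934, minus strand) lie 39279 bases apart with 0 protein-coding genes between them. Ocln (chr13:100496507-100552718) and Marveld2 (chr13:100595957-100616971), both on the minus strand, are 43238 bases apart, again with 0 protein-coding genes between. The remaining members are Cldn7 at chr11:69964779-69967885, Cldn1 at chr16:26356642-26371841, Cldn8 at chr16:88560828-88563183, F11r at chr1:171437535-171464603, Tjp1 at chr7:65296165-65527781 and Tjp3 at chr10:81273207-81291581. Snail and Zeb proteins are known to repress junction genes through the E-box CACCTG, whose other strand reads CAGGTG, so promoters were searched for it. RefSeq promoters on GRCm38.p6, from 250 bases before to 50 after a transcription start, were at hand for 9 of the 10 members, all but Cldn8, with 13 starts. The following 5 are shown because they belong to the 3 claudins with the highest levels, to Ocln and to Tjp1. Tjp1 was the only member whose own pooled level was higher in WT basal cells than in every other group. Capitals mark the E-box, and GGGCGG or its other strand CCGCCC, a site of the Sp type.
Cldn3, chr5:134985964-134986263, plus strand: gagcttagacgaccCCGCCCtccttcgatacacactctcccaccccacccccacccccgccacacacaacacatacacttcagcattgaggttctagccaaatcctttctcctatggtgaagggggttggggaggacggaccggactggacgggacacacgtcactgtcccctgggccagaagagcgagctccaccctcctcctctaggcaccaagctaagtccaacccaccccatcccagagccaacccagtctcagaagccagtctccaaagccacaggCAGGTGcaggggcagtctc
Cldn4, chr5:134946885-134947184, minus strand: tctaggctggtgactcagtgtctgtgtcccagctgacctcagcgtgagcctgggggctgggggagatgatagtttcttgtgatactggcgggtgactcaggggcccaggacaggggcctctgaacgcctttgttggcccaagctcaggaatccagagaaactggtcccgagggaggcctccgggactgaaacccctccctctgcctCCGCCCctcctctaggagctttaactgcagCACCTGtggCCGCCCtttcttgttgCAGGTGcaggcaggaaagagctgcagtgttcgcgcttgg
Cldn7, chr11:69965171-69965470, plus strand, the downstream start of 2: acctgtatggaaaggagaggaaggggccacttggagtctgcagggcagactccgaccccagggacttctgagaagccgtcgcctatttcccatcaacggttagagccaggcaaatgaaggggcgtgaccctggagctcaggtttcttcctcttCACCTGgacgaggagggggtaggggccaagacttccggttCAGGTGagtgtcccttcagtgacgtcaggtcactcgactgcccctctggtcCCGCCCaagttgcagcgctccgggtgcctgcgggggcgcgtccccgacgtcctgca
Ocln, chr13:100552449-100552748, minus strand, the downstream start of 2: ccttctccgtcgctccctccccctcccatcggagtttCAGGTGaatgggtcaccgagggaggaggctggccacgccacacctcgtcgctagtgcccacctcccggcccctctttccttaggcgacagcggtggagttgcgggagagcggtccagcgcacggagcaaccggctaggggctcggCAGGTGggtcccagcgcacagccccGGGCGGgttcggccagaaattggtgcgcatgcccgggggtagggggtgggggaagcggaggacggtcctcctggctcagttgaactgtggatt
Tjp1, chr7:65371195-65371494, minus strand: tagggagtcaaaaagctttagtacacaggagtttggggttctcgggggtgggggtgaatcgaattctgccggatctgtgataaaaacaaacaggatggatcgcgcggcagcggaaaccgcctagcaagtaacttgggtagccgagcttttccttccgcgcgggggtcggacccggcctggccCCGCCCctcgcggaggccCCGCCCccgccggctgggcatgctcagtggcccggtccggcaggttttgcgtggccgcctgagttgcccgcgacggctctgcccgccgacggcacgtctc

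At least 1 start of 7 of the 9 members held the E-box on either strand, namely Cldn3, Cldn4, Cldn7, F11r, Marveld2, Ocln and Tjp3. Counted by start, 10 of 13 member promoters held it, where 20.2% of 32851 promoters in the table did. The windows at hand for Tjp1 and Cldn1 did not hold these letters. That of Tjp1 ends at base 65371494, inside a minus-strand gene annotated up to base 65527781. The start at that end of Tjp1 was not searched. In Cldn4 a pair of E-boxes begins 14 bases before and 12 after the start, and in the Cldn7 window shown a pair begins 97 and 57 bases before it. The 2 windows of Ocln overlap, as do the 2 of Marveld2, and share an E-box. The Sp site was found in 8 of the 9 members and 10 of 13 starts, against 35.7% of all promoters. The Grainyhead motif AACCGGTT, of a factor family known to activate junction genes, was in 0 of the 13 and in 0.146% of all promoters, and the looser AACCNGTT in 0 of the 13 and 2.09% of all. These counts describe letters in a window of 300 bases and were not tested for base composition.

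Cldn3, Cldn4 and Cldn7 were the most abundant members in WT luminal, ablated hybrid and ablated luminal cells and were at or near the level of empty wells in both basal groups. Pooled over cells, Cldn3 stood at 1256 CPM in WT luminal, 829 in ablated hybrid and 885 in ablated luminal cells, and at 4.09 in WT basal and 18.3 in ablated basal cells. Its levels in single WT luminal cells ran from 10.5 through a median of 1185 to 3371 CPM. The highest of the 44 WT basal cells reached 27.5 CPM, so the ranges of these groups overlapped only through the lowest luminal cell. The next lowest WT luminal cell stood at 98.8 CPM. Hybrid cells spread from 2.99 through a median of 593 to 4181 CPM, which spans the levels of both other types. Ablated luminal cells covered a like range, from 1.97 through 599 to 4410.0 CPM.

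Cldn4, a claudin known to bind a bacterial enterotoxin, was the highest member per length, with 2035 CPM per kb of exon in WT luminal cells against 998 for Cldn3 and 388 for Cldn7. Pooled levels of Cldn4 were 3696 CPM in WT luminal, 1306 in ablated hybrid and 2390.4 in ablated luminal cells, beside 19.5 in WT basal and 21.3 in ablated basal cells. Its luminal values were widely spread. WT luminal cells lay between 11.4 and 17840 CPM with a median of 1527, hybrid cells between 3.31 and 16186 CPM with a median of 316, and ablated luminal cells between 8.43 and 10119 CPM with a median of 1188. The medians kept the order of the pooled levels, with hybrid cells lowest of the 3.

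Cldn7, which is known to bind EpCAM at the lateral membrane, was pooled at 756 CPM in WT luminal, 525 in ablated hybrid, 804 in ablated luminal, 1.65 in WT basal and 1.54 CPM in ablated basal cells. No basal cell came near the luminal median: the highest was 10.0 CPM in WT basal and 19.6 CPM in ablated basal cells, against medians of 460 in WT luminal, 331 in hybrid and 695 CPM in ablated luminal cells. Of the 3 claudins it was the only one detected in 0 cells of both basal groups, 0 of 44 and 0 of 71. The exact intervals over cells reach up to shares of 8.04% and 5.06%. Detection means at least 5 reads after each cell was thinned at random to 100000 reads, equal to 50 CPM. The share for Cldn7 was 81.4% of WT luminal, 70.6% of hybrid and 92.1% of ablated luminal cells.

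**Figure D1:**
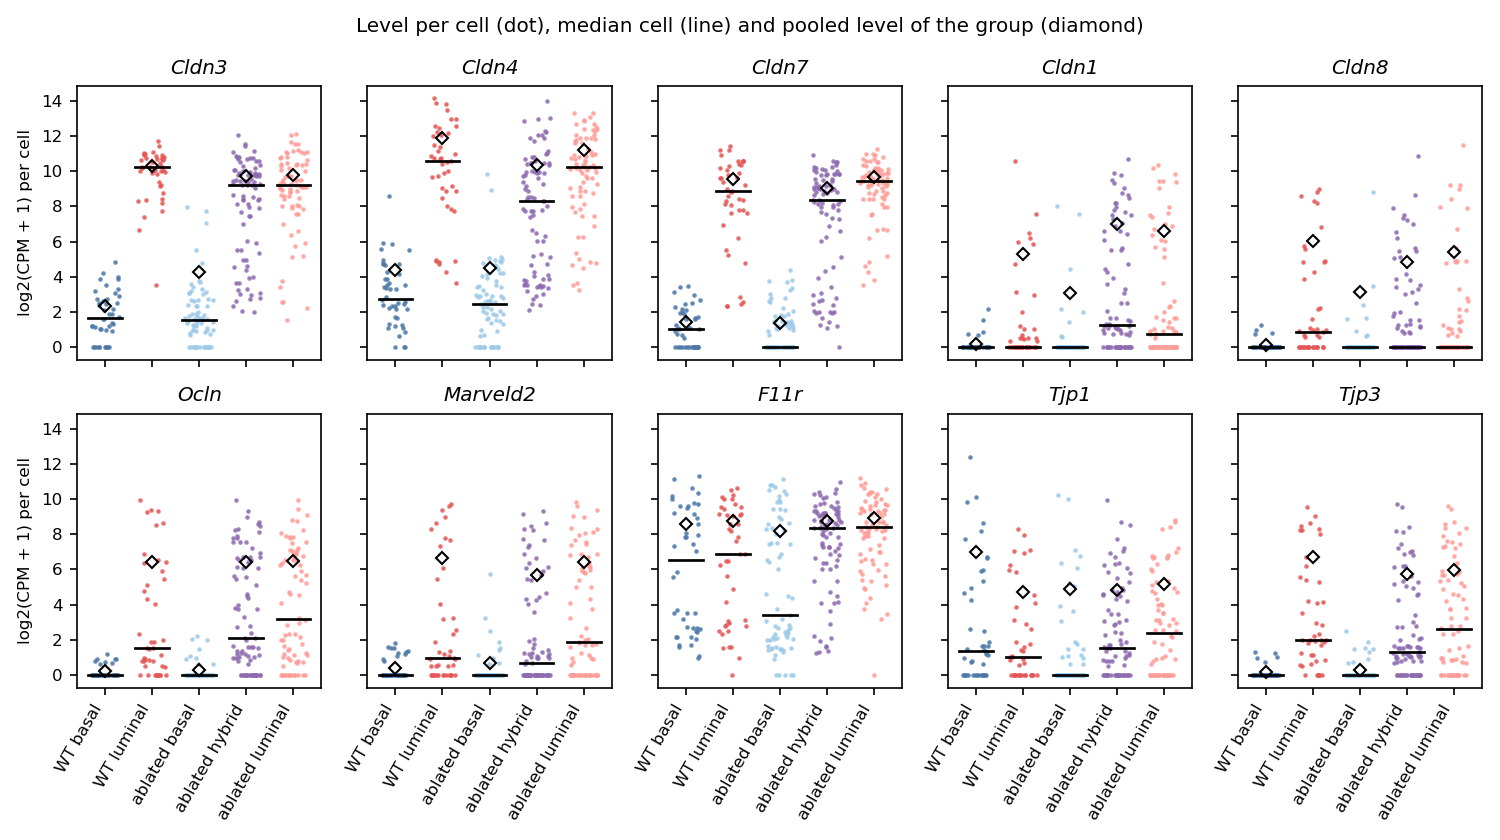
Level of each member in every kept cell, as log2(CPM + 1) on the vertical axis, by group on the horizontal axis; dots are cells, the line is the median cell and the diamond the level pooled over the group. Cldn3, Cldn4 and Cldn7 are low in both basal groups and high in most luminal cells, hybrid cells run from one range to the other, and F11r is high in part of the cells of every group.

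The low values in basal cells have to be read beside the 5 negative control wells. These held 7930 to 13572 reads in genes, among them a mean of 13 reads of Cldn3, 16.4 of Cldn4 and 5.4 of Cldn7 per well. A WT basal cell held on average 4.30, 20.5 and 1.73 reads of the same genes, with medians of 2, 7.5 and 1. A WT luminal cell held on average 2076, 6110 and 1249. The basal means of Cldn3 and Cldn7 thus lay below the negative wells, and 49.6% of the WT basal reads of Cldn4 came from 1 cell. Ratios of luminal to basal cells for these 3 genes are therefore set by a denominator at the level of empty wells.

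Cldn1 and Cldn8 were lower and were carried by few cells. Cldn1, which in skin is needed for the water barrier, was highest in hybrid cells, with 129 CPM pooled, followed by 96.0 in ablated luminal, 37.6 in WT luminal, 7.32 in ablated basal and 0.130 CPM in WT basal cells. The median cell stood at 1.36 CPM in hybrid and 0.709 CPM in ablated luminal cells and at 0 CPM in the other groups, and the highest reached 1638 CPM in hybrid, 1297 in ablated luminal and 1539 CPM in WT luminal cells. That single WT luminal cell held 72% of its group's reads. Cldn1 was detected in 30.6% of hybrid cells (95% interval 21 to 41.5%), 23.7% of ablated luminal (14.7 to 34.8%) and 14% of WT luminal cells (5.30 to 27.9%). In basal cells the shares were 2.82% of ablated basal cells (0.343 to 9.81%) and 0% of those labelled WT basal (up to 8.04%). Each neighbouring pair in this order had overlapping intervals, but those of hybrid and ablated luminal cells lay above those of both basal groups.

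Cldn8, known from the kidney tubule, was pooled at 64.5 CPM in WT luminal, 40.7 in ablated luminal, 27.8 in hybrid, 7.85 in ablated basal and 0.0866 CPM in WT basal cells. Its shares were 16.3%, 13.2%, 14.1%, 1.41% and 0% in the same order. The 1 ablated basal cell that detected it, at 455 CPM, gave 98.1% of that group's reads. The median cell was at 0.814 CPM in WT luminal cells and at 0 CPM in all other groups, so most cells of every group held little or none.

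Occludin and tricellulin were both far lower in basal cells than in the other groups, at lower levels than the 3 leading claudins. They differed in hybrid cells, where Ocln stood near its WT luminal level and Marveld2 below it. Ocln was pooled at 84.5 CPM in WT luminal, 85 in hybrid and 89.2 in ablated luminal cells and at 0.195 and 0.203 CPM in WT and ablated basal cells. Its median cell was at 1.92, 3.38 and 8.11 CPM in the first 3 groups, and the highest cells at 980.0, 999.7 and 966 CPM, so a minority of cells carried the level in each. It was detected in 27.9% of WT luminal cells (15.3 to 43.7%), 37.6% of hybrid cells (27.4 to 48.8%) and 43.4% of ablated luminal cells (32.1 to 55.3%), and in 0 cells of both basal groups. Marveld2 was pooled at 98.5 CPM in WT luminal, 49.7 in hybrid, 84.4 in ablated luminal, 0.325 in WT basal and 0.593 CPM in ablated basal cells. Its share was 25.6%, 16.5% and 31.6% in the luminal, hybrid and ablated luminal groups, 0% in WT basal and 1.41% in ablated basal cells. Detection of both genes in the same cell was counted in 6 of 43 WT luminal, 10 of 85 hybrid and 13 of 76 ablated luminal cells.

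F11r was high in part of the cells of all 5 groups. Its pooled level was 389 CPM in WT basal, 421 in WT luminal, 289.9 in ablated basal, 429 in hybrid and 478 CPM in ablated luminal cells. Single WT basal cells ran from 0.956 through a median of 93.3 to 2498 CPM and WT luminal cells from 0 through 117 to 1554 CPM, so these groups overlapped over nearly their whole range. The median was 9.86 CPM in ablated basal, 321 in hybrid and 335 CPM in ablated luminal cells. Detection was most frequent in ablated luminal cells at 86.8% (77.1 to 93.5%), then hybrid at 76.5% (66 to 85%), WT luminal at 60.5% (44.4 to 75%), WT basal at 52.3% (36.7 to 67.5%) and ablated basal cells at 42.3% (30.6 to 54.6%). The intervals of each neighbouring pair overlapped. Those further apart did not all overlap: the interval of ablated luminal cells lay above those of WT luminal and both basal groups. That of hybrid cells lay above that of ablated basal cells. Per kb of exon, F11r was the highest member in both basal groups, with 146 CPM per kb in WT basal and 109 in ablated basal cells.

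The plaque genes had unlike profiles. Tjp1, which is found at the junctions of many cell types, had its highest level in WT basal cells at 127 CPM, against 25 in WT luminal, 29.1 in ablated basal, 27.9 in hybrid and 34.8 CPM in ablated luminal cells. One WT basal cell at 5399 CPM gave 39.6% of that group's reads, and the median WT basal cell stood at 1.57 CPM, beside 1.02 in WT luminal, 0 in ablated basal, 1.90 in hybrid and 4.22 CPM in ablated luminal cells. By share the groups were closer, with 25% of WT basal (13.2 to 40.3%), 19.7% of ablated luminal, 18.6% of WT luminal, 14.1% of hybrid and 8.45% of ablated basal cells (3.16 to 17.5%), and all neighbouring intervals overlapped. This order did not hold without thinning, where 5 or more reads were found in 47.4% of ablated luminal, 41.2% of hybrid, 34.9% of WT luminal, 31.8% of WT basal cells, with ablated basal cells last at 15.5%. Tjp3, whose product is known mainly from epithelia, followed the claudins: 102 CPM in WT luminal, 51.8 in hybrid and 61.9 in ablated luminal cells, and 0.130 and 0.220 CPM in WT and ablated basal cells. It was detected in 25.6%, 20% and 26.3% of the first 3 groups and in 0 of 44 and 0 of 71 basal cells.

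**Figure D2:**
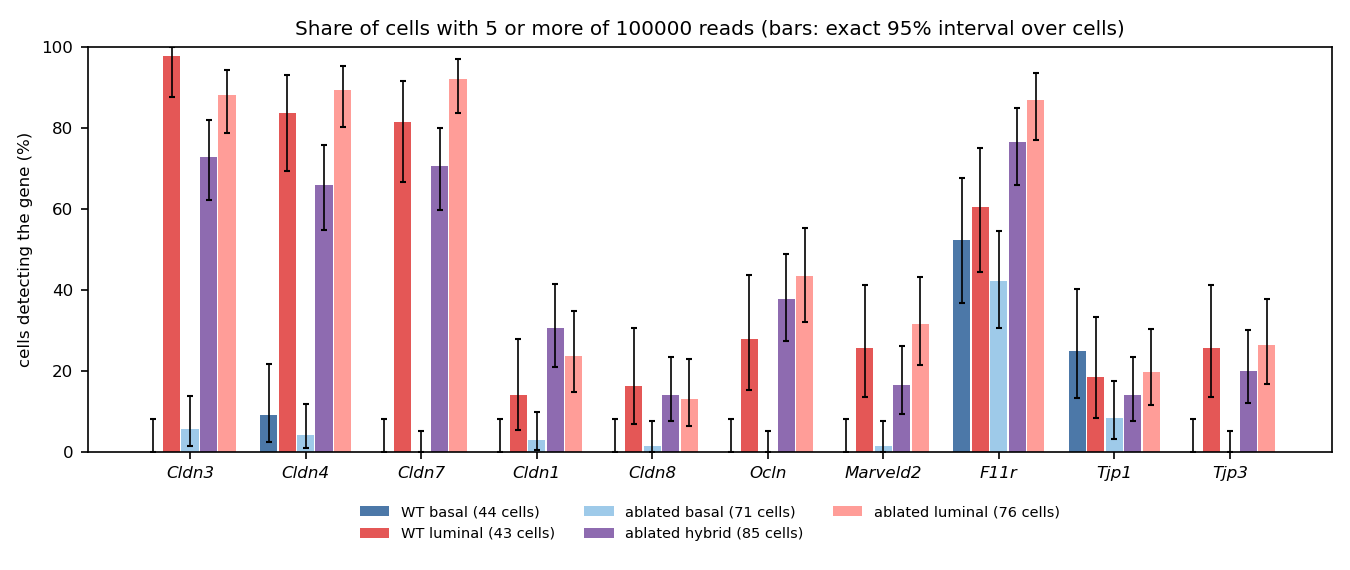
Percent of cells in which each member was detected at 5 or more of 100000 reads (vertical axis), by member and group; error bars are exact Clopper-Pearson 95% intervals over the cells of a group and leave out differences between animals. Only F11r, Tjp1 and Cldn4 were detected in WT basal cells, at 52.3%, 25% and 9.09%.

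Shares were also counted without thinning. In that count 5 or more reads of Cldn4 were found in 59.1% of WT basal, 39.4% of ablated basal, 98.8% of hybrid and all 43 WT luminal and 76 ablated luminal cells, and of Cldn3 in 29.5% of WT basal, 19.7% of ablated basal and 94.1% of hybrid cells. These basal counts have to be set against the mean of 16.4 and 13 reads in a negative well. Cldn7 was then found in 9.09% of WT basal, 5.63% of ablated basal, 80% of hybrid and 97.4% of ablated luminal cells. Ocln, Tjp3 and Cldn1 stayed at 0 of 44 WT basal cells, and hybrid cells came to 44.7% for Ocln, 32.9% for Tjp3, 37.6% for Cldn1, 29.4% for Marveld2, 22.4% for Cldn8 and 88.2% for F11r.

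The first comparison, WT luminal over WT basal cells, asks how the members divide between the cell types of the glands labelled WT. On a log2 scale after adding 10 CPM to each level, 8 of the 10 members were 2-fold or more higher in luminal cells, where 22.3% of 11106 measured genes were, and 1, Tjp1, was 2-fold or more lower, where 21.3% were. The members' median log2 ratio was 3.30, beside 0.01 over all measured genes. Cldn4 had a log2 ratio of 6.97, Cldn3 6.49 and Cldn7 6.04, followed by Tjp3 at 3.46, Marveld2 at 3.39, Ocln at 3.21, Cldn8 at 2.89 and Cldn1 at 2.23. F11r was at 0.11 and Tjp1 at -1.97. When each group's top cell for the gene was left out, Cldn1 came to 1.04 and Tjp1 to -1.48. Summed over the 5 claudins, WT luminal cells held 3456 CPM per kb and WT basal cells 14.9.

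Ablated basal over WT basal cells asks whether basal cells take up members after ablation. Of the 10, 1 was 2-fold or more higher (19.8% of measured genes) and 1 lower (14.9%), with a median of 0.02 against 0.05 over all genes. Cldn3, the higher one, stood just past the limit at a log2 ratio of 1.01, and 40.8% of its ablated basal reads came from 1 cell; without the top cell of each group the ratio was 0.66. Its ablated basal cells held 15.2 reads on average, against the 13 of a negative well. Tjp1, the lower one, was at -1.81, and at -1.64 without the top cells. Cldn8 and Cldn1 were at 0.82 and 0.77 and came to 0.01 and 0.42 without the top cells, while the remaining 6 members lay between -0.41 for F11r and 0.08 for Cldn4. F11r differed more by other measures. Its median cell stood at 93.3 CPM in WT basal and 9.86 CPM in ablated basal cells. Without thinning, 5 or more of its reads were found in 84.1% and 50.7% of these cells, and after thinning in 52.3% and 42.3%. In the libraries of many cells its log2 ratio was -1.13. The sign of Cldn4 and of Ocln, both near 0, turned negative under TMM and under median-of-ratios scaling. None of Cldn3, Cldn4 and Cldn7 was detected in 90.9% of basal cells labelled WT and in 90.1% of those from ablated glands.

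Ablated luminal over WT luminal cells compares luminal cells of both kinds of gland. Here 1 member, Cldn1, was 2-fold or more higher at a log2 ratio of 1.15 (15.3% of measured genes), and 0 were 2-fold or more lower (6.61%). The members' median was -0.07 beside 0.21 over all genes. Tjp3 at -0.64, Cldn4 at -0.63, Cldn8 at -0.56 and Cldn3 at -0.50 lay below it, and Tjp1 at 0.36 above. With TMM scaling the median over all genes moved from 0.21 to 0.01, the split of measured genes became 11% higher and 9.78% lower, and Cldn1 came to 0.90; Cldn7, Ocln and F11r, at 0.09, 0.07 and 0.18, then turned negative at -0.21, -0.20 and -0.11. Without the top cell of each group Cldn1 came to 2.09.

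Ablated luminal over ablated basal cells asks the first question again in the ablated glands. The same 8 of 10 members were 2-fold or more higher (19.3% of measured genes) and 0 lower (13.2%), at a median of 2.98 against 0.16. Cldn4 was at 6.26, Cldn7 at 6.14 and Cldn3 at 4.98, Ocln at 3.28, Marveld2 at 3.16, Tjp3 at 2.81, Cldn1 at 2.61 and Cldn8 at 1.51. F11r was at 0.70, and Tjp1, which was lower in WT luminal than in WT basal cells, at 0.20. With median-of-ratios scaling the split over all genes was 15.2% higher and 15.8% lower, and the 8 members stayed past 2-fold.

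Ablated hybrid over ablated basal cells asks which members mark the hybrid group off from basal cells, and the same 8 members were 2-fold or more higher, where 16% of measured genes were. None was 2-fold or more lower, where 8.87% were. The median was 2.80 against 0.14. Cldn7 was at 5.53, Cldn4 at 5.39, Cldn3 at 4.89, Ocln at 3.22, Cldn1 at 3.00, Tjp3 at 2.60, Marveld2 at 2.50 and Cldn8 at 1.08, whereas F11r was at 0.55 and Tjp1 at -0.05. Under TMM scaling the split over all genes was 12.7% higher and 11.4% lower and Cldn8 came to 0.96, and to 0.88 with at most 10% mitochondrial reads per cell. This comparison shares its basal cells with the one before.

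In levels pooled over single cells, hybrid did not differ 2-fold from ablated luminal cells in any member. After adding 10 CPM, 0 of 10 were past 2-fold in either direction, where 6% of measured genes were higher and 4.19% lower. The median was -0.23 beside -0.01, and 9 of the 10 ratios were below 0, from -0.87 for Cldn4, -0.66 for Marveld2 and -0.61 for Cldn7 to -0.06 for Ocln. Cldn1 was the exception at 0.39. The median cell differed more for some members, at 316 CPM in hybrid against 1188 in ablated luminal cells for Cldn4. It stood at 331 against 695 CPM for Cldn7, but at 593 against 599 CPM for Cldn3. Of the 8 members 2-fold or more higher in ablated luminal than in ablated basal cells, 7 had a hybrid level between both, where 76.9% of 2140 such genes did, a share close to that of the members. On the log2 scale the hybrid level lay 98.1% of the way from basal to luminal for Cldn3 and Ocln, 92.2% for Tjp3, 90.1% for Cldn7, 86.1% for Cldn4, 79.1% for Marveld2 and 71.9% for Cldn8, and Cldn1 lay beyond the luminal level at 115%. The median was 91.2% for these members and 75.4% over all such genes. The luminal over basal log2 ratios of these members ran from 1.51 to 6.26, where the 95th percentile over all measured genes was 1.92. These medians were not matched for the size of that ratio.

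**Figure D3:**
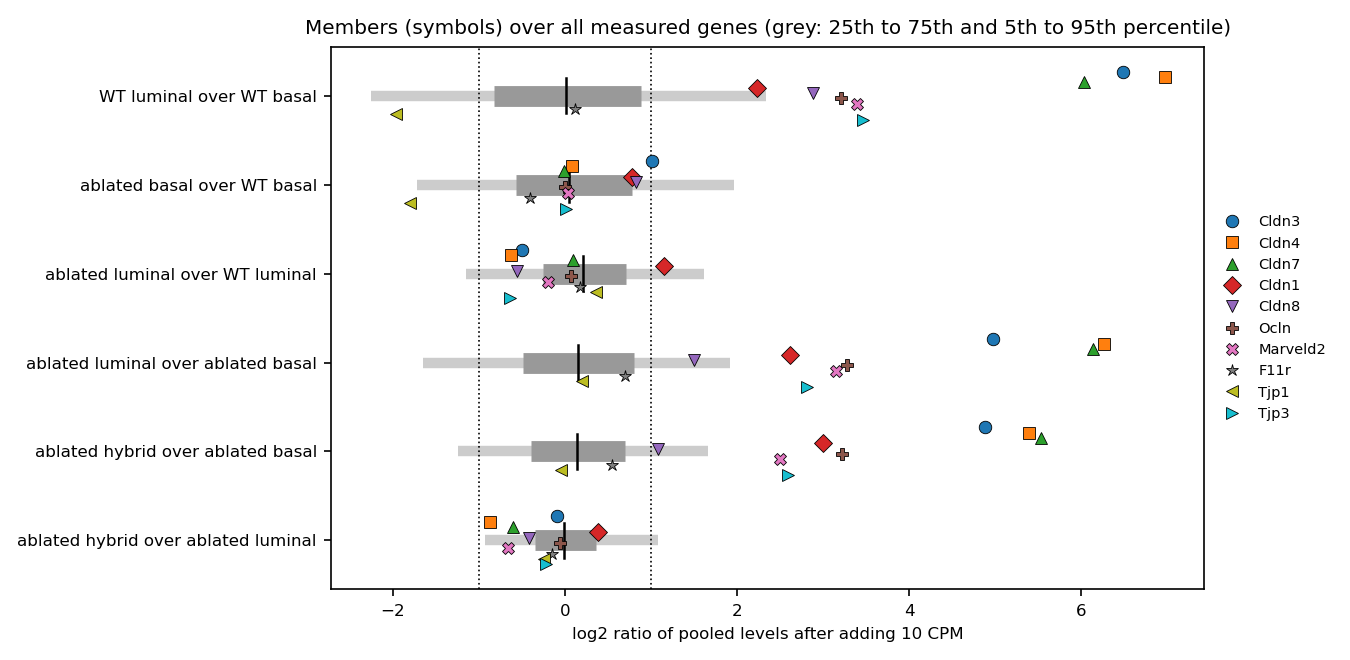
Log2 ratio of pooled levels after adding 10 CPM (horizontal axis) for each member (symbols, with vertical offsets for legibility) in the 6 comparisons (vertical axis); grey bars span the 25th to 75th and the 5th to 95th percentile of 11106 measured genes, the black line is their median and dotted lines mark 2-fold. In the 3 comparisons of luminal or hybrid over basal cells Cldn3, Cldn4 and Cldn7 lie at 4.89 or more and F11r and Tjp1 below 1, and in hybrid over ablated luminal cells all members lie within 2-fold.

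Pooled levels hide how the members combine within a cell. The median number of members detected per cell was 1 in WT basal, 5 in WT luminal, 1 in ablated basal, 4 in hybrid and 5 in ablated luminal cells. No basal cell detected more than 3, and the highest count was 8 in WT luminal, hybrid and ablated luminal cells alike. At least 5 members were detected in 23 of 43 WT luminal, 42 of 85 hybrid and 51 of 76 ablated luminal cells. None was detected in 6 of 85 hybrid cells, against 0 in both luminal groups and 31 of 71 in ablated basal cells.

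Cldn3, Cldn4 and Cldn7 were detected together in 29 of 43 WT luminal cells (67.4%), 43 of 85 hybrid cells (50.6%) and 61 of 76 ablated luminal cells (80.3%), and in 0 basal cells. Hybrid cells were mixed: 13 of 85 (15.3%) detected none of the 3, 9 detected 1 and 20 detected 2. Neither luminal group had a cell with none. By plate line, among lines of at least 9 kept cells, the hybrid share for Cldn7 ran from 66.7 to 76.5%, for Cldn3 from 61.9 to 82.6% and for Cldn4 from 56.5 to 76.5%, so no single line carried the hybrid values.

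The claudins in hybrid cells were found beside basal transcripts. All 43 hybrid cells with the 3 claudins also detected Krt14, a basal keratin, and Acta2, the smooth muscle actin of myoepithelial cells. With 82 of 85 hybrid cells detecting Krt14 and Acta2 together, nearly any feature of these cells would be found beside them. Of those 82 cells, 70 detected at least 1 of the claudins. Among ablated basal cells 68 of 71 detected Krt14 and Acta2 and 7 of these at least 1 claudin, and among ablated luminal cells 14 of 76 detected both basal genes and 11 of these all 3 claudins. In WT luminal cells 0 of 43 detected Krt14 and Acta2 together. Wells that received more than 1 cell were not searched for, and their part in these counts was not tested.

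**Figure D4:**
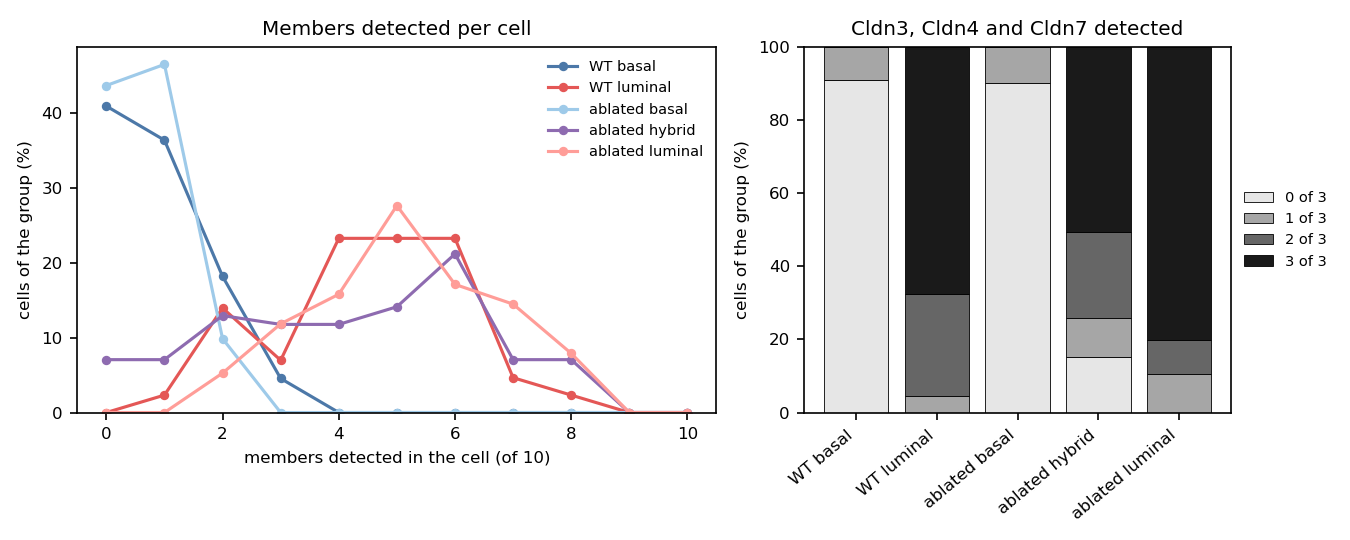
Left, percent of the cells of each group (vertical axis) by the number of the 10 members detected in the cell (horizontal axis); right, percent of cells of each group detecting 0, 1, 2 or 3 of Cldn3, Cldn4 and Cldn7. Basal cells end at 3 members, luminal cells centre on 5, and hybrid cells spread from 0 to 8, with 15.3% detecting none of the 3 claudins.

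Across all 319 cells the closest pair was Cldn3 and Cldn7, with a Pearson r of 0.822 of log2(CPM + 10), followed among the leading claudins by Cldn3 and Cldn4 at 0.762 and Cldn4 and Cldn7 at 0.733. The median over the 45 pairs was 0.276. The cells come from groups with unlike levels, so r was also taken within groups. Within hybrid cells alone Cldn3 and Cldn7 gave 0.736, Cldn3 and Cldn4 0.544 and Cldn4 and Cldn7 0.474, and within ablated luminal cells 0.558, 0.465 and 0.422. Within WT luminal cells they gave -0.21, 0.157 and 0.0292. Ocln and Marveld2 gave 0.403 over all cells and 0.346 within hybrid cells. The cells of a group share a plate block but not depth, which ran from 118310 to 2414194 reads among hybrid cells. These correlations are descriptions.

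Among the genes whose levels followed the mean of the 10 members most closely, out of 7367 compared, were Krt19 (r 0.791), Clu (0.731), Krt18 (0.727), Plet1 (0.693), Krt8 (0.662), Taldo1 (0.634) and Epcam (0.633). Krt8, Krt18 and Krt19 are the keratins of luminal cells, and EpCAM was used in the sort. When r was taken within each group and averaged over the 5 groups, Krt19 was again first at 0.467, and the genes after it included Krt7 (0.371), Upk3a (0.327), Clu (0.323), Lgals3 (0.305), Plet1 (0.303) and Hp (0.296). Krt19, Clu and Plet1 were in both lists. Krt19 stood at 40.6 CPM in WT basal, 6157 in WT luminal, 12.2 in ablated basal, 2670 in hybrid and 5185 CPM in ablated luminal cells. Upk3a, a protein of bladder epithelium, was at 90.8 CPM in WT luminal but at 707 in hybrid and 564 CPM in ablated luminal cells.

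Of 53 other listed genes of the junction, 51 were found and 38 were measured. In WT luminal over WT basal cells 17 were 2-fold or more higher (44.7%, beside 22.3% of all measured genes) and 6 lower (15.8%, beside 21.3%), with a median of 0.76. In ablated hybrid over ablated basal cells 15 were higher (39.5%, beside 16%) and 1 lower (2.63%, beside 8.87%), with a median of 0.51. In ablated luminal over ablated basal cells 12 were higher (31.6%, beside 19.3%) and 5 lower (13.2%, the same as over all genes), with a median of 0.73. The other comparisons gave few calls. In ablated over WT basal cells 6 were higher (15.8%, below the 19.8% of all genes) and 4 lower (10.5%, below 14.9%), and in ablated over WT luminal cells 3 were higher (7.89%, below 15.3%) and 5 lower (13.2%, beside 6.61%). In hybrid over ablated luminal cells 4 were higher (10.5%, beside 6%) and 2 lower (5.26%, beside 4.19%). The most abundant was Epcam, which binds Cldn7 and belongs to the sort antigens, at 766 CPM in WT basal, 3269 in WT luminal, 338 in ablated basal, 1958 in hybrid and 2821 CPM in ablated luminal cells. Cxadr, the Coxsackie and adenovirus receptor, stood at 56 CPM in WT basal and 361 in WT luminal cells, and at 167 in ablated basal, 371 in hybrid and 243 CPM in ablated luminal cells. Lsr, which brings tricellulin to the corners of cells, varied less, from 74.5 CPM in WT basal to 239.9 CPM in ablated luminal cells. Cgnl1, a paralogue of cingulin, was highest in WT luminal cells at 76.3 CPM and next in hybrid cells at 64.6, with 27.2 in ablated luminal, 7.41 in ablated basal and 0.217 CPM in WT basal cells.

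Not all of these genes were higher in luminal cells. Amotl1, an angiomotin, was at 294 CPM in WT basal and 379 in ablated basal cells, against 129 in WT luminal, 242 in hybrid and 121 CPM in ablated luminal cells. Prkci, an atypical protein kinase C of cell polarity, was within 2-fold in all 6 comparisons, from 87.1 to 142 CPM. Cldn6, a claudin known from the embryo, was at 117 CPM in ablated luminal, 33.2 in hybrid, 0.102 in ablated basal, 28.7 in WT luminal and 30.5 CPM in WT basal cells.

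Among 12 measured genes known to promote epithelial identity, 7 were 2-fold or more higher in WT luminal than in WT basal cells (58.3%, beside 22.3% of all measured genes). In ablated luminal over ablated basal cells 7 were higher (58.3%, beside 19.3%), in ablated hybrid over ablated basal cells 5 (41.7%, beside 16%), and 0 were lower in these comparisons. Ablated over WT basal cells gave 3 higher (25%, near the 19.8% of all genes) and 1 lower (8.33%, beside 14.9%), ablated over WT luminal cells 0 higher and 2 lower (16.7%, beside 6.61%), and hybrid over ablated luminal cells 0 in either direction. Ehf, an ETS factor of epithelia, had 19.2 CPM in WT basal, 204 in WT luminal, 2.97 in ablated basal, 176 in hybrid and 286 CPM in ablated luminal cells. Elf3, a relative, stood at 24.1, 659, 68.5, 176 and 227 CPM in the same order of groups, and Elf5, a factor of alveolar cells, at 0.282, 111, 0.0848, 34.3 and 22.9 CPM. Cdh1, the E-cadherin of adherens junctions, stood at 63, 363, 196, 346 and 649 CPM. Klf4 and Klf5, Krüppel-like factors, were within 2-fold in all 6 comparisons.

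Snai2 (Slug) is a repressor known to bind E-boxes. It stood at 89.2 CPM in WT basal and 141 in ablated basal cells, at 0.169 in WT luminal and 6.53 in ablated luminal cells, and at 56.3 CPM in hybrid cells. Hybrid cells thus held a level of Snai2 that was 2-fold or more below ablated basal (log2 ratio -1.18) and above ablated luminal cells (2.00). Of the 6 listed repressors only Snai2 and Snai1 were measured, and Snai1 was within 2-fold in all 6 comparisons.

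Markers of other cell types were few but not evenly spread. The 5 immune markers summed to 0.260 CPM in WT basal, 13.3 in WT luminal, 70.2 in ablated basal, 112 in hybrid and 36.2 CPM in ablated luminal cells, with Ptprc at 0 in all groups but hybrid. Cd74 made up most of each sum, at 0.238, 13.3, 59.1, 92.6 and 34.1 CPM in the same order of groups. The 5 fibroblast markers summed to 3.74 to 148 CPM and were highest in ablated basal cells, and the endothelial markers to at most 7.30 CPM. Leaving out the 4 hybrid and 1 ablated basal cells that detected 2 or more markers of one of these types left the counts of members past 2-fold as they were in all 6 comparisons.

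The 5 libraries of many cells, 1 per group with 1005368 to 3511761 reads, gave a separate look at the same groups. In such libraries fewer cells of a type and less RNA per cell cannot be told apart. Cldn3 stood at 3.90, 1358, 16.3, 1144 and 1766 CPM in WT basal, WT luminal, ablated basal, hybrid and ablated luminal cells, and Cldn4 at 5.31, 6292, 9.68, 824 and 1652 CPM, so both kept the gap between basal and other groups. Cldn1 was highest in the hybrid library, with 279.6 CPM against 65.2 in ablated luminal and 22.4 CPM in ablated basal cells, and had 0 reads in both WT libraries. In direction, 8, 8, 5, 8, 7 and 7 of the 10 members had the same sign as in the pooled single cells, in the order in which the comparisons are given above.

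Several members departed from the single cells in these libraries. Tjp1 had 1.42 CPM in the ablated luminal and 61.4 CPM in the hybrid library, where the pooled single cells had 34.8 and 27.9. Cldn8 was higher in the ablated basal library, at 112 CPM, than in the hybrid and ablated luminal ones, at 60.6 and 81.4 CPM. Cldn7 stood at 66.8 CPM in the ablated basal library, against 1.54 CPM in the single cells. F11r was higher in the WT basal library, at 552 CPM, than in the WT luminal one, at 306 CPM. Markers of other cell types also differed between these libraries and the single cells. Immune markers summed to 292 CPM in the hybrid library, against 112 CPM in the single cells. All of the 292 CPM was Cd74, with Ptprc, Cd52, Tyrobp and Lyz2 not read there. In the other libraries the immune sum was at most 18.9 CPM. Endothelial markers summed to 94.5 CPM in the WT basal library, all of it Cldn5, against 0.0433 CPM in the single cells, with Pecam1, Cdh5, Kdr and Emcn not read there. Their part in these departures was not tested. With 1 library per group, the spread between such libraries is unknown.

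**Figure D5:**
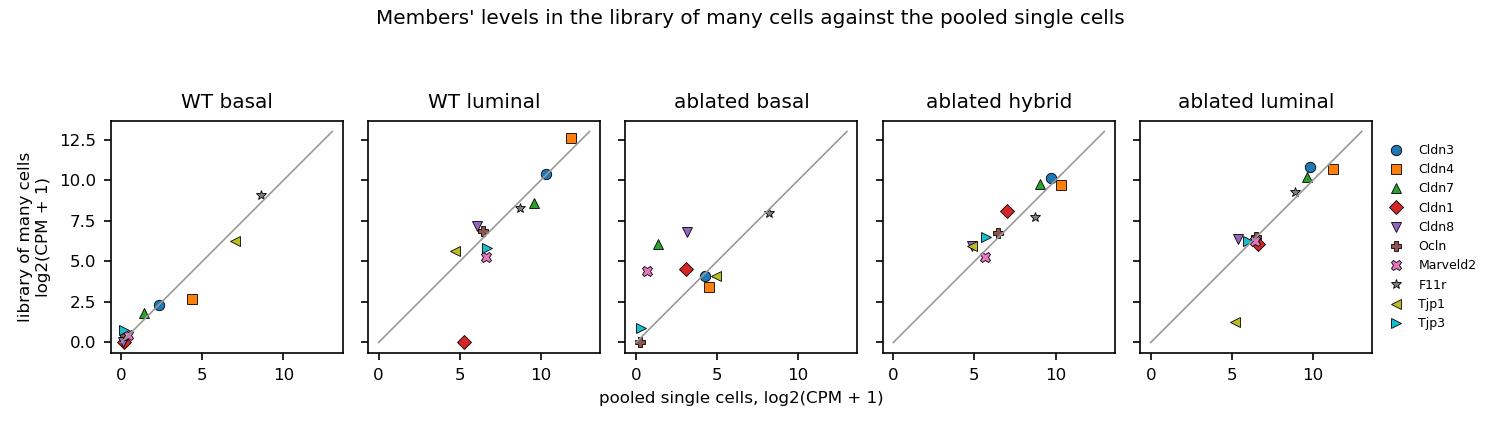
Level of each member in the library of many cells (vertical axis) against the level pooled over single cells (horizontal axis), both as log2(CPM + 1), in 1 panel per group; the line marks equal levels. Most members lie near the line in the hybrid group, and Tjp1 in ablated luminal, Cldn1 in WT luminal, and Cldn7, Cldn8 and Marveld2 in ablated basal cells lie far from it.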

How the data were processed

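The values deposited by the authors are whole-number read counts of genes in wells, not normalized. GRCm38, HTSeq 0.6.0, STAR 2.5.2b, Seurat and cutadapt 1.13 stand in the submitters' processing notes, with no roles. No source used here says whether counting used strand; Cldn3, Tjp1, Tjp3 and Marveld2 share 40 to 1628 bases with other annotated genes. Symbols and lengths came from GENCODE M21, with 3 members matched without the identifier's version. Members and lists were chosen with earlier results of these data known.

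A well needed 100000 gene reads, 1000 detected genes and no more than 20% mitochondrial reads, and 0 of the wells had identical columns. Reads were summed over the kept cells of a group and scaled to CPM. Exact Poisson 95% intervals cover counting error only and are too narrow, since PCR copies cannot be removed without molecular identifiers. A floor of 3 reads lies between 0.0313 CPM in hybrid and 0.0650 CPM in WT basal cells. Genes were called measured when their mean over the 5 groups reached 5 CPM. Shares carry exact Clopper-Pearson 95% intervals, also where 0 cells detected a gene. Levels of different genes were compared per kb of exon union.

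From the lists of other junction genes and of regulators, the text names the 5 with the highest mean CPM and those past 2-fold in most comparisons, with Snai1 added after its values were seen; it also names genes among the 8 most like the members by each of 2 measures, restricted to a mean of at least 20 CPM, and 1 result is not reported here. The calculation was run in Python 3.11.15 with scipy 1.17.1, TMM factors came from edgeR, and the ratio step was tested on simulated data. The alternatives tried are given in the closing section, 2 of them added after seeing the data (subtraction of negative-well reads and removal of cells with markers of other types).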

Additional observations from a re-analysis of the deposited data

Results flagged for a closer look

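Negative control wells, which should hold no cell, held reads of 6 members above the limit of 3 reads that a count of 0 allows, namely 82 of Cldn4, 65 of Cldn3, 27 of Cldn7, 16 of F11r, 6 of Ocln and 4 of Tjp3 over the 5 wells together. The members with most reads there were those with the highest pooled counts in the luminal groups, and the wells' total was 56720 reads. Subtracting the mean of these wells from every cell moved the log2 ratio of Cldn3 in WT luminal over WT basal cells from 6.49 to 6.87 and left each count of members past 2-fold as it was.

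A pair of members changed past 2-fold after ablation in basal cells and moved in the opposite direction in luminal cells. Cldn3 had log2 ratios of ablated over WT of 1.01 in basal and -0.50 in luminal cells, and Tjp1 of -1.81 in basal and 0.36 in luminal cells. Other members also had opposite signs with both ratios within 2-fold, such as Cldn8 at 0.82 and -0.56 and F11r at -0.41 and 0.18. The basal ratio of Cldn3 was 0.66 without the top cell of each group. It came from 15.2 reads per ablated basal cell on average but 2 in the median cell, against a mean of 13 in a negative well. Of 71 ablated basal cells, 4 detected Cldn3. These differences were not tested, since each group is 1 sample. In the libraries of many cells Cldn3 was at 0.92 and 0.38 and Tjp1 at -1.72 and -2.39, so neither pair was opposite there.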

How the results depend on the processing

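Of the 28 member ratios past 2-fold, 25 kept their direction in all 13 alternatives and 22 stayed past 2-fold in the 12 that use single cells. Cldn8 turned around in the libraries of many cells, at -0.79 for hybrid and -0.42 for ablated luminal over ablated basal cells, and Cldn1 was at 0 there for WT luminal over WT basal cells. The same libraries gave the following counts, all of members past 2-fold: 4 higher and 2 lower for ablated over WT basal, 2 and 2 for ablated over WT luminal, 2 and 1 for hybrid over ablated luminal, 0 lower for WT luminal over WT basal and 1 lower for ablated luminal over ablated basal cells. For ablated over WT basal cells 3 members were higher with 1 CPM added, and 0 with 50 CPM added, TMM scaling, median-of-ratios scaling, equal weight per cell, or with each group's top cell left out. For ablated over WT luminal cells 0 were higher with 50 CPM added, TMM scaling, median-of-ratios scaling or equal weight per cell. The cause was not tested. The median number of members per cell was 2 in both basal groups with detection at 1 read and 0 at 20 reads. Without the filter on low values the share of all genes past 2-fold fell by more than 1.5 times in each direction of each comparison, as genes near 0 were added. With the longest transcript as length, the first 4 members per kb kept their order in all 5 groups. No paired analysis was possible because each group is 1 sample. Depth limits the shares of Cldn1, Cldn8, Ocln, Marveld2, Tjp1 and Tjp3, whose median cells lie below the 50 CPM that detection needs in all 5 groups.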
